A study of Drosophila melanogaster with 6 samples.

Results

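The heat shock genes described here are the heat shock transcription factor gene Hsf and the chaperone genes Hsp22, Hsp23, Hsp26, Hsp27, Hsp68, Hsp83, DnaJ-1, stv and Hsc70-4 of Drosophila. They were chosen by gene symbol, and 9 of the 10 were measured, among 14233 genes in the whole table. The symbol column held 8 of them, and Hsc70-4 was found by its gene identifier. Hsp22 was not analysed here.

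RNA came from flow-sorted dorsal cells of wing imaginal discs, which are epithelial sacs of the larva from which the wing and the back of the thorax arise. In 3 libraries the cells carried Ap>Gal4, myrT, RasV12 and TubGal80ts, where RasV12 is Ras locked in its active, GTP-bound state. In 3 control libraries a construct labelled GFP-i took the place of RasV12. In both groups Ap>Gal4, active in dorsal wing disc cells, drove the transgenes together with the membrane fluorophore used for sorting. Larvae of both groups were kept for 6 days at 18 °C, where Gal80ts blocks Gal4, and for 3 days at 29 °C before wandering larvae were dissected and the discs dissociated with trypsin. Temperature, dissociation and sorting were thus shared, no library comes from larvae left at 18 °C, and the levels below are those of warmed, sorted cells in both genotypes. Each library was made from 150000 cells. Nothing in the labels ties the replicates to separate larvae or cultures. Each p-value therefore measures only how far these samples differ, a spread that may be technical.

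Heat shock proteins are chaperones that bind unfolded proteins and keep them from aggregating. In flies a single heat shock factor, Hsf, binds their promoters on stress and raises transcription of the inducible genes. Small heat shock proteins hold unfolded clients, the Hsp70 machine with its J-domain partners and exchange factors refolds them, and Hsp90 matures kinases and receptors. In flies the small heat shock genes at cytological position 67B are also turned on by the moulting hormone ecdysone at the end of larval life.

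The libraries held 11070295 to 15581752 counts. Levels are library-size-normalised counts (CPM) scaled by the trimmed mean of M values, a correction for library composition. Sequencing read the 3' ends of transcripts, so CPM are not divided by gene length, and levels of different genes are not compared with each other. A floor of 3 counts stood at 0.193 to 0.271 CPM, which covers counting error only. The 9 genes together took 1.26 to 1.505% of counts in the RasV12 libraries and 1.49 to 1.74% in the GFP-i libraries, ranges that overlap. The test covered 9134 genes and called 14.8% of them. RasV12 cells had 836 of these at a raised level and 519 at a lowered level, so 61.7% were higher. With scaling by library size only 40.3% of the called genes were higher, and the median of all genes moved from 0.02 to -0.14 on the log2 scale.

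None of the 9 heat shock genes passed the test between RasV12 and GFP-i cells, where 14.8% of all tested genes did (edgeR quasi-likelihood test, adjusted p under 0.05). DESeq2 and limma-voom also called 0 of them. At an unadjusted p under 0.05 there were 2, Hsf and Hsp27, against 28.3% of all genes. Fold changes were positive for 3 and negative for 6, with a median of -0.10 on the log2 scale. The 95% interval of every one of the 9 fold changes lay between -0.75 and 0.73, so each excludes a 2-fold change under this fit. On TMM-scaled levels the libraries of the 2 groups did not overlap for 5 of the 9 genes, against 33.6% of all tested genes. With scaling by library size only, Hsf stood at 0.27, Hsc70-4 at 0.10, Hsp83 at -0.41, DnaJ-1 at -0.21, stv at -0.28 and Hsp23 at -0.26 on the log2 scale. Of the 5 genes without overlap, Hsf, Hsc70-4 and Hsp26 were higher in each RasV12 library than in any control, and Hsp27 and Hsp83 were lower. The TMM factors were 0.913 to 0.965 in the RasV12 libraries and 1.03 to 1.09 in the controls. Per total counts alone, Hsf, Hsc70-4 and Hsp26 overlapped between the groups, and Hsp27 and Hsp83 did not.

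**Figure D1:**
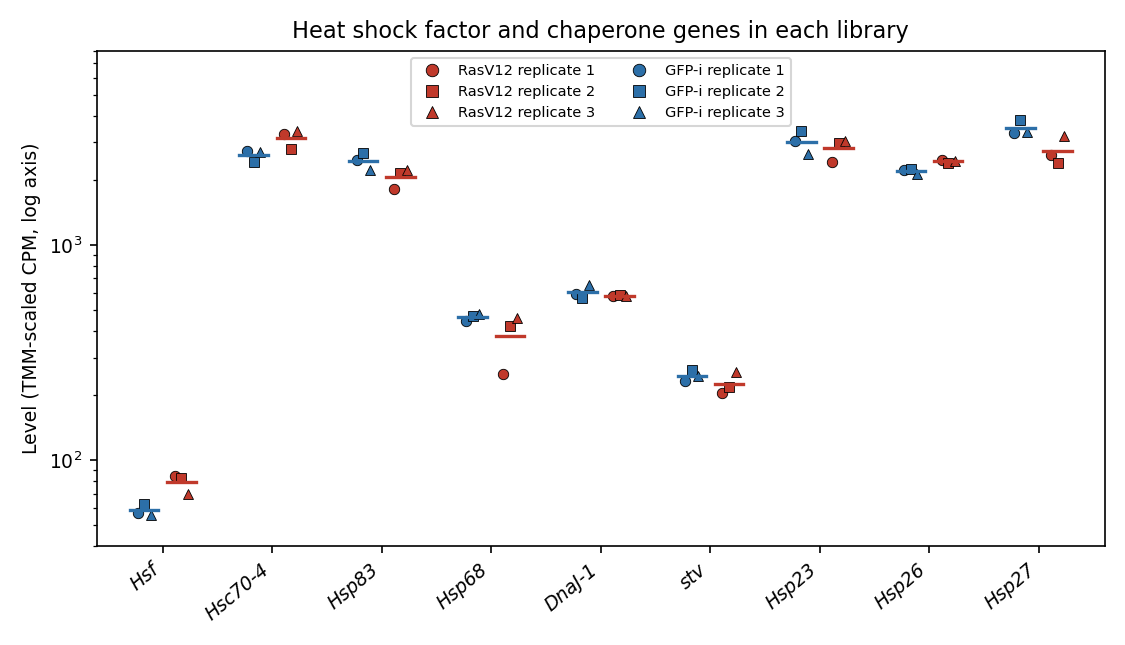
Level of each heat shock gene in each library, in TMM-scaled CPM on a log axis. Points are libraries, with the marker giving the replicate number, and lines are group means (n = 3). On this scale the groups separate without overlap for Hsf, Hsc70-4, Hsp83, Hsp26 and Hsp27.

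The gene Hsf (2R, 18130303 to 18134634, dm6), the transcription factor of the response, had the largest fold change of the 9. It stood at 84.1, 82.7 and 69.8 CPM in RasV12 replicates 1, 2 and 3 against 56.7, 62.7 and 55.7 CPM in controls 1, 2 and 3. Every RasV12 library was above every control library in TMM-scaled CPM, but not per total counts alone. The group means were 78.9 ± 7.90 CPM and 58.4 ± 3.74 CPM (SD, n = 3), and the log2 difference was 0.43 ± 0.13 (SE; 95% interval 0.14 to 0.73). It missed the threshold (edgeR adjusted p = 0.056). It passed in 2 of 15 alternatives, with a filter of 10 CPM in 3 libraries (edgeR adjusted p = 0.038) and without RasV12 replicate 3 (edgeR adjusted p = 0.048). In the others it did not pass, with an adjusted p of up to 0.283, and 0.207 in edgeR with scaling by library size only.

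Hsp83 (3L, 3192969 to 3197059) encodes the cytosolic Hsp90 of the fly, the chaperone of signalling kinases. It measured 1819.9, 2173 and 2229 CPM in RasV12 and 2492, 2673 and 2233 CPM in GFP-i. The highest RasV12 library and the lowest control library lay within a few CPM of each other without overlap. RasV12 over GFP-i was -0.25 ± 0.13 on the log2 scale (SE, n = 3 per group; 95% interval -0.53 to 0.03; edgeR adjusted p = 0.231). CG14966 overlaps Hsp83 on the other strand at 18.4 to 22.5 CPM on group average.

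Hsc70-4 (3R, 15242687 to 15246614) encodes the main constitutive cytosolic Hsp70, which folds new proteins and uncoats clathrin vesicles. Its levels were 3271, 2798 and 3390.2 CPM in RasV12 and 2744, 2436 and 2700.3 CPM in GFP-i. The RasV12 libraries were all above the controls, RasV12 replicate 2 by the least. Its log2 fold change was 0.26 ± 0.12 (SE; 95% interval -0.00315 to 0.53; edgeR adjusted p = 0.182).

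Hsp68 (3R, 24055080 to 24057310) encodes a stress-inducible Hsp70 relative. RasV12 replicate 1 stood apart, at 252 CPM against 421 and 456 CPM in replicates 2 and 3. The controls lay close together at 444, 467 and 478 CPM, and the groups overlapped. RasV12 over GFP-i gave -0.30 ± 0.20 on the log2 scale (SE; 95% interval -0.75 to 0.15; edgeR adjusted p = 0.374), and -0.08 without RasV12 replicate 1.

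The co-chaperones showed small differences. DnaJ-1 (3L, 5750029 to 5752189), a J-domain protein of the Hsp40 class that stimulates Hsp70, measured 579, 586 and 579 CPM in RasV12 and 594, 565 and 651 CPM in GFP-i. Its RasV12 libraries all fell inside the range of the controls, and the log2 fold change was -0.05 ± 0.11 (SE; 95% interval -0.30 to 0.19; edgeR adjusted p = 0.796). The gene stv (3L, 13477541 to 13483515) encodes Starvin, the fly BAG-domain partner of Hsp70 that acts with small heat shock proteins in muscle. It measured 205, 218 and 258 CPM in RasV12 and 233, 264 and 245 CPM in GFP-i, overlapping ranges with a log2 fold change of -0.12 ± 0.13 (SE; 95% interval -0.42 to 0.17; edgeR adjusted p = 0.586).

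Hsp23, Hsp26 and Hsp27 lie in the 67B cluster, and none passed the test. Hsp23 (3L, 9381882 to 9382765) measured 2439.9, 2978 and 3051 CPM in RasV12 and 3042, 3406 and 2638 CPM in GFP-i, overlapping groups with a log2 fold change of -0.10 ± 0.14 (SE; 95% interval -0.41 to 0.21; edgeR adjusted p = 0.679). Hsp26 (3L, 9376418 to 9377427) was tight within groups, at 2496, 2405 and 2446 CPM in RasV12 and 2239, 2267 and 2136 CPM in GFP-i. Each RasV12 library was above each control, by a log2 fold change of 0.15 ± 0.10 (SE; 95% interval -0.08 to 0.38; edgeR adjusted p = 0.400), which was -0.02 with scaling by library size only.

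Hsp27 (3L, 9384063 to 9385694), encodes a small heat shock protein found in the nucleus. It measured 2610.0, 2397 and 3202 CPM in RasV12 and 3302, 3819 and 3349 CPM in GFP-i, so every RasV12 library was below every control. The log2 fold change was -0.35 ± 0.14 (SE; 95% interval -0.65 to -0.05; edgeR adjusted p = 0.121). It passed in 2 of 15 alternatives, with scaling by library size only (edgeR adjusted p = 0.040) and without RasV12 replicate 3 (edgeR adjusted p = 0.048). In the others it did not pass, with an adjusted p of up to 0.280. CR43483, at 9.57 to 12.7 CPM on group average, overlaps its 3' end on the other strand.

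Ratios between members within a library do not depend on how libraries are scaled. There was 0.956, 1.003 and 0.764 of a Hsp26 count per Hsp27 count in RasV12 replicates 1, 2 and 3, against 0.678, 0.594 and 0.638 in the GFP-i replicates. Every RasV12 library had the higher ratio, by 0.50 log2 units. There were 1.80, 1.29 and 1.52 Hsc70-4 counts per Hsp83 count in RasV12 and 1.10, 0.911 and 1.21 in GFP-i, a difference of 0.51 log2 units. For each of these ratios the exact two-sided permutation test gave p = 0.1, the smallest that 3 against 3 libraries allow (adjusted p = 0.133 over 4 ratios). The ratio of Hsp23 to Hsp27 was 0.26 log2 units higher in RasV12 (exact permutation p = 0.1, adjusted p = 0.133) and that of Hsp26 to Hsp23 0.25 units higher with overlap (exact permutation p = 0.3, adjusted p = 0.3). The 4 ratios were chosen after the values of these genes were seen. Hsp26 with Hsp27 and Hsc70-4 with Hsp83 pair a gene that was higher without overlap with one that was lower, so the separation of these ratios restates those values and adds no support to them.

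In the authors' deposited table none of the 9 genes was called either. Their lowest adjusted p among the 9 was 0.082, for Hsf, with an unshrunken log2 fold change of 0.40 in the authors' deposited table. That table gives -0.38 for Hsp27 and 0.23 for Hsc70-4, with adjusted p of 0.099 and 0.315.

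**Figure D2:**
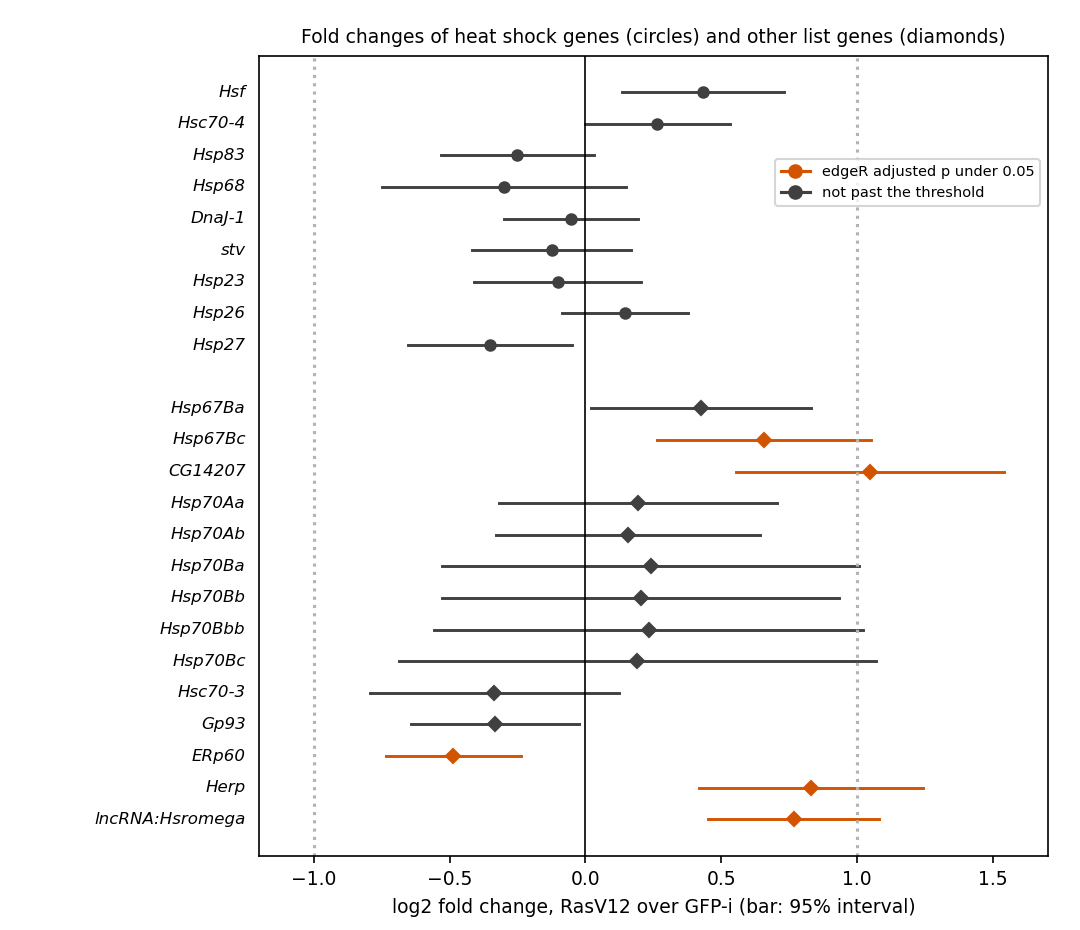
The log2 fold change of RasV12 over GFP-i with its 95% interval (bars), for Hsf and 8 heat shock genes (circles) and 14 other genes of the chaperone lists (diamonds). Every circle's interval lies inside the dotted lines that mark a 2-fold change. Of the genes drawn, Hsp67Bc, CG14207, ERp60, Herp and lncRNA:Hsromega passed the test.

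The 6 inducible Hsp70 copies, the main heat shock proteins of the fly, were counted in every library. Hsp70Aa (3R, 11954163 to 11956544) measured 1867, 3754 and 2549 CPM in RasV12 and 2473, 2402 and 2267 CPM in GFP-i. Hsp70Ab (3R, 11958535 to 11960909) measured 2018, 3934 and 2741 CPM in RasV12 and 2682, 2669.9 and 2448 CPM in GFP-i. CG3281 overlaps Hsp70Ab on the other strand, with a mean of 11.5 CPM over the RasV12 libraries and 12.2 CPM over the controls (log2 fold change -0.09). RasV12 replicate 2 was the highest of the 6 libraries for both copies and RasV12 replicate 1 the lowest, with the controls between them. The mitochondrial share of counts had the same extremes, at 5.31% in RasV12 replicate 2 and 2.165% in RasV12 replicate 1, with 3.24% in RasV12 replicate 3 and 3.63 to 3.85% in the controls. RasV12 replicate 2 also differed most from its group, with a chi-square per degree of freedom over genes of 93.9 and 87.5 against RasV12 replicates 1 and 3, which differed from each other by 38.5. The part of these differences in the Hsp70 values was not tested.

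The copies at the second Hsp70 locus followed the same order at the extremes. Hsp70Ba measured 191, 541 and 314 CPM in RasV12 and 331, 271 and 283 CPM in GFP-i. Hsp70Bb ranged from 214 to 584 CPM, Hsp70Bbb from 196 to 575 CPM and Hsp70Bc from 106 to 345 CPM over the RasV12 libraries, and from 317 to 363, 287 to 349 and 173 to 185 CPM over the controls. None of the 6 copies passed the test with edgeR, DESeq2 or limma-voom, and 0 had an unadjusted p under 0.05, at log2 fold changes of 0.16 to 0.24 with standard errors of 0.21 to 0.38 (edgeR adjusted p = 0.623 to 0.786). Without RasV12 replicate 2 all 6 were negative, from -0.11 to -0.44. The copies are nearly identical in sequence and are not independent: the ratio of Hsp70Aa to Hsp70Ab counts was 0.900 to 0.954 in all 6 libraries, and that of Hsp70Ba to Hsp70Bbb 0.940 to 0.976. The sources used here do not say how reads that match several copies were assigned.

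The inducible Hsp70 genes and Hsc70-3 had a wider range over the RasV12 libraries than most genes had, but were not alone in this. The highest RasV12 library held 1.95 to 3.24 times the level of the lowest for the 6 copies, 1.81 times for Hsp68 and 1.87 times for Hsc70-3, against a median of 1.33 times over 4985 genes with a mean of at least 10 CPM. A smaller ratio was found for 92.9 to 98.8% of those genes for the 6 copies and for 89.8% for Hsp68 and 91.4% for Hsc70-3. Among the GFP-i libraries the same ratio was 1.07 to 1.22 for the copies, 1.08 for Hsp68 and 1.14 for Hsc70-3, with a median over genes of 1.22. Hsp26 and DnaJ-1 were among the steadiest genes over the RasV12 libraries, with ratios of 1.04 and 1.01. The difference in spread between the groups was not tested.

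**Figure D3:**
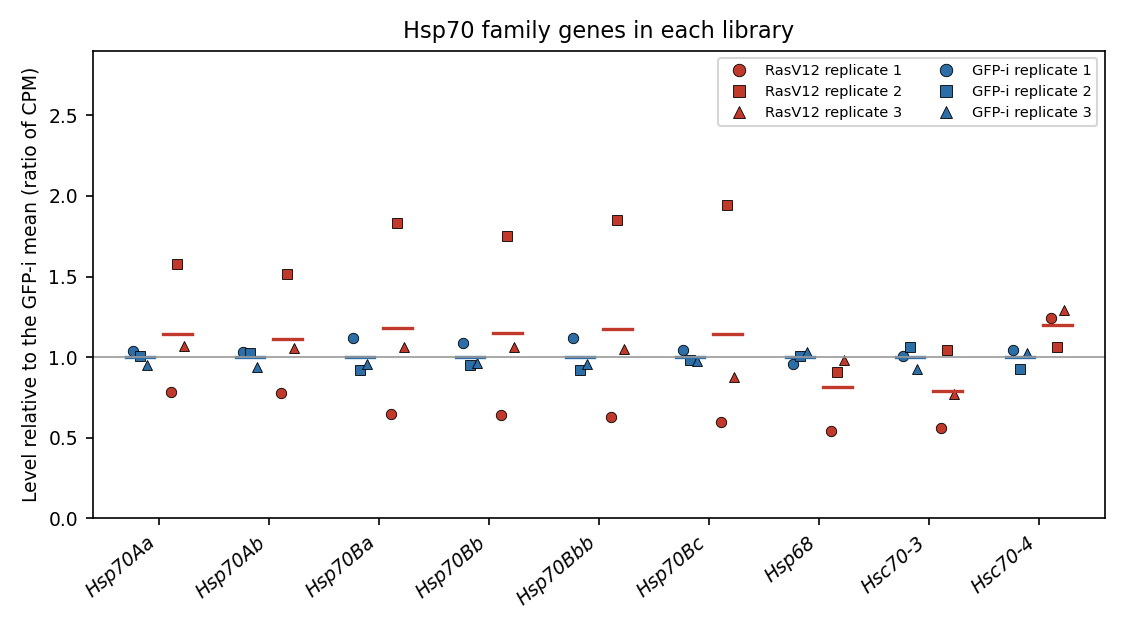
Level of Hsp70 family genes in each library divided by the GFP-i mean of the gene, on a linear axis from 0. Lines are group means. RasV12 replicate 2 is the highest library and RasV12 replicate 1 the lowest for all 6 inducible copies, while the control libraries lie close to 1.

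Of 5 other Hsp70 relatives 4 were tested, and none passed, with 0 at an unadjusted p under 0.05. Hsc70-3, the Hsp70 of the endoplasmic reticulum, measured 336, 629 and 464 CPM in RasV12 and 607, 638 and 558 CPM in GFP-i (log2 fold change -0.34 ± 0.20, SE; edgeR adjusted p = 0.326). RasV12 replicate 2 alone lay within the control range, and without it the fold change was -0.59 (edgeR adjusted p = 0.020). That was the 1 of 15 alternatives in which Hsc70-3 passed. The mitochondrial Hsc70-5 and the exchange factor Hsc70Cb, which releases nucleotide from Hsp70, stood at -0.02 ± 0.20 and 0.04 ± 0.13 (log2, SE). Hsc70-2 was at 0.937 to 2.04 CPM (-0.13 ± 0.39), and Hsc70-1, at 0.236 to 1.09 CPM, was too low to test.

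Over all other chaperone genes, 71 were in the table and 64 were tested. Of these 6 rose, 1 fell and 57 did not pass, that is 9.38% higher and 1.56% lower where 9.15% and 5.68% of all tested genes passed, with a median log2 fold change of 0.05. An unadjusted p under 0.05 was found for 20 of the 64 (31.2%), against 28.3% of all tested genes. By list these were 0 of 6 inducible Hsp70 genes, 0 of 4 cognates, 3 of 3 other small heat shock genes, 1 of 12 Hsp90 paralogues and co-chaperones, 6 of 15 J-domain genes, 4 of 4 exchange and Bag factors, 1 of 9 chaperonins, 1 of 2 Hsf partners and heat shock loci and 5 of 11 endoplasmic reticulum genes. Gp93 and Hsc70-3 each belong to 2 of these lists. DESeq2 and limma-voom also gave 6 higher and 1 lower at an adjusted p under 0.05. The number that rose was 4 without the rows of ribosomal and mitochondrial RNA, 3 without RasV12 replicate 1 or 3 and 1 without GFP-i replicate 2 or 3. None fell once RasV12 replicate 1 was left out, and 5 fell either without RasV12 replicate 2 or when only library size was used for scaling.

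The transcript lncRNA:Hsromega (3R, 21296127 to 21317836), a heat-inducible nuclear RNA that gathers RNA-binding proteins, rose in RasV12 cells. It measured 1263, 1447 and 1663 CPM in RasV12 and 746, 902 and 925 CPM in GFP-i, with no overlap. RasV12 exceeded GFP-i by 0.77 ± 0.14 on the log2 scale (SE, n = 3 per group; edgeR adjusted p = 0.0051), and it passed in each of the 15 alternatives run (adjusted p up to 0.041). It was listed beside CG5446, the other gene of its list, which stood at -0.04 ± 0.20.

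Of 3 other small heat shock genes that could be tested 2 rose, where 9.15% of all tested genes did. The number was 0 without GFP-i replicate 2 or 3, and 1 without RasV12 replicate 2 or 3, without GFP-i replicate 1, on total-count scaling, or without the ribosomal and mitochondrial rows. CG14207 (X, 19605199 to 19611413), a small heat shock protein gene outside the cluster, measured 61.6, 108 and 64.7 CPM in RasV12 and 40.8, 33.1 and 39.4 CPM in GFP-i. It rose by 1.05 ± 0.22 (log2, SE; edgeR adjusted p = 0.011). Leaving out GFP-i replicate 2 or 3 ended that call (edgeR adjusted p = 0.060 and 0.083). Hsp67Bc (3L, 9371511 to 9372497), whose protein pairs with Starvin, measured 47.4, 67.9 and 71.6 CPM in RasV12 and 36.1, 44.1 and 38.1 CPM in GFP-i. It rose by 0.66 ± 0.18 (edgeR adjusted p = 0.033). The call held without RasV12 replicate 1, ended on leaving out any of the other 5 libraries (edgeR adjusted p = 0.052 to 0.201), and ended when only library size was used for scaling (0.110) or the ribosomal and mitochondrial rows were removed (0.0565). Hsp67Ba stood at 0.43 ± 0.18 (edgeR adjusted p = 0.155), with 138, 204 and 166 CPM in RasV12 and 132, 145 and 101 CPM in GFP-i. The other 3 measured genes of this list, Hsp67Bb, CG4461 and l(2)efl, reached at most 1.25 CPM and were not tested.

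Co-chaperones of Hsp70 held 2 further rises. Of 15 J-domain genes 1 rose, CG2887, at 0.302 to 0.752 CPM in GFP-i and 1.41 to 2.29 CPM in RasV12. Its log2 difference was 1.90 ± 0.44 (SE; edgeR adjusted p = 0.018), and 4 of the 6 libraries each ended the call when left out (0.063 to 0.106), namely RasV12 replicates 1 and 3 and GFP-i replicates 2 and 3. The next J-domain gene, mrj, stood at 0.44 ± 0.16 (edgeR adjusted p = 0.090). It passed in 1 of 15 alternatives, without RasV12 replicate 2 (edgeR adjusted p = 0.032). In the list of exchange and Bag factors CG7945 rose by 0.58 ± 0.16 (log2, SE; edgeR adjusted p = 0.035). Only RasV12 replicate 2 could be left out with the call kept. Dropping any other library gave 0.073 to 0.210, scaling on library size alone 0.107, no filter on low counts 0.0805, and removal of the ribosomal and mitochondrial rows 0.0512. The other 3 genes of that list were also positive without passing, namely Sil1 (1.30 ± 0.48), CG10973 (0.65 ± 0.24, with CG10984 overlapping it on the other strand) and the mitochondrial exchange factor Roe1 (0.62 ± 0.21). Sil1 passed in 1 of the 14 alternatives that tested it, without RasV12 replicate 2 (edgeR adjusted p = 0.025).

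Partners of Hsp90 and the chaperonins held no called gene. None of 12 Hsp90 paralogues and co-chaperones passed, with 1 at an unadjusted p under 0.05, a median of -0.13, and the lowest p for Gp93, the Hsp90 of the endoplasmic reticulum (-0.33 ± 0.14, SE; edgeR adjusted p = 0.147), followed by the myosin chaperone unc-45 (0.38 ± 0.18). Gp93 passed in 2 of 15 alternatives, without RasV12 replicate 2 (edgeR adjusted p = 0.032) and when libraries were scaled on total counts alone (0.048). None of 9 tested chaperonin genes passed, with 1 at an unadjusted p under 0.05 and a median of -0.02. CCT4, a subunit of the TRiC chaperonin that folds actin and tubulin, had the lowest p (-0.31 ± 0.12, edgeR adjusted p = 0.117). It passed in 1 of 15 alternatives, scaling by library size only (edgeR adjusted p = 0.027). Tcp-1eta stood at -0.22 ± 0.13. DESeq2 and limma-voom called 0 in both lists.

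In the endoplasmic reticulum list 1 gene fell and 1 rose among 11, with 8 negative fold changes and a median of -0.29, where 9.15% of all tested genes rose and 5.68% fell. Leaving out RasV12 replicate 2 gave 5 that fell, against 3 on total-count scaling and 0 without RasV12 replicate 1. The number that rose was 0 without RasV12 replicate 1 or without GFP-i replicate 2 or 3. The disulfide isomerase gene ERp60 fell from 545, 532 and 489 CPM in GFP-i to 362, 374 and 382 CPM in RasV12, a log2 difference of -0.49 ± 0.11 (SE; edgeR adjusted p = 0.016). Dropping RasV12 replicate 1 ended the call (edgeR adjusted p = 0.062). Herp, which acts in the degradation of misfolded proteins at the endoplasmic reticulum, rose from 7.75, 6.84 and 6.65 CPM to 12.7, 11.5 and 13.5 CPM. Its log2 fold change was 0.83 ± 0.18 (SE; edgeR adjusted p = 0.014), and dropping RasV12 replicate 1 or either of GFP-i replicates 2 and 3 gave 0.051 to 0.092. Hsc70-3 and Gp93 belong to this list too.

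The small heat shock cluster on chromosome arm 3L was then read with its neighbours, between 9352931 and 9405694 (dm6), which is 20 kb beyond the outer genes on each side. The window overlapped 22 genes, of which 18 were tested. Besides Hsp23, Hsp26 and Hsp27, 15 were tested and 3 were higher in RasV12: Hsp67Bc, asRNA:CR43481 and the cuticle protein gene Cpr67B. The share over all tested genes was 9.15%. The count was 0 without GFP-i replicate 1 or 2, 1 on leaving out RasV12 replicate 1, RasV12 replicate 3 or GFP-i replicate 3, and 2 without RasV12 replicate 2. It was also 2 with DESeq2, with no filter, or without the ribosomal and mitochondrial rows. The transcript asRNA:CR43481 measured 4.94, 3.94 and 4.64 CPM in RasV12 and 2.41, 2.36 and 2.34 CPM in GFP-i, a log2 difference of 0.93 ± 0.26 (SE; edgeR adjusted p = 0.041). DESeq2 did not call it (adjusted p = 0.075), nor did edgeR with no filter (0.0862) or on total-count scaling (0.0707), nor did edgeR when any library except RasV12 replicate 2 was dropped (adjusted p = 0.106 to 0.158). The transcript overlaps Hsp67Ba on the other strand, and no source used here states whether counting used strand. Reads of the pair may therefore be mixed. Cpr67B rose by 1.57 ± 0.39 (log2, SE; edgeR adjusted p = 0.024), with 0.903 to 1.81 CPM in GFP-i and 2.91 to 5.01 CPM in RasV12. Dropping RasV12 replicate 1 or either of GFP-i replicates 1 and 2 ended the call (edgeR adjusted p = 0.082 to 0.111).

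Next to the 3' end of Hsp27 lies CR43482 (9386112 to 9386463), which the Ensembl annotation lists as a pseudogene. It measured 1317, 1245 and 1514 CPM in RasV12 and 1608, 1797 and 1476 CPM in GFP-i, and the log2 difference of -0.26 ± 0.13 (SE; edgeR adjusted p = 0.213) had the sign of that of Hsp27. There were 0.441 to 0.520 CR43482 counts per Hsp27 count over the 6 libraries. Of the other tested neighbours, UGP, Pdxk, Klp67A, CG4447 and CG4080 were negative (-0.12 to -0.55) and CG32039, CG4452, Fdxh, CR43483 and eIF-4E positive (0.14 to 0.61), none past the threshold. CG32040, CG34456, CG4461 and Hsp67Bb were too low to test. In the same annotation Hsp22 spans 9372931 to 9374964, wholly inside Hsp67Bb and with the same 3' end, and Hsp67Bb held 28 counts over the 6 libraries.

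**Figure D4:**
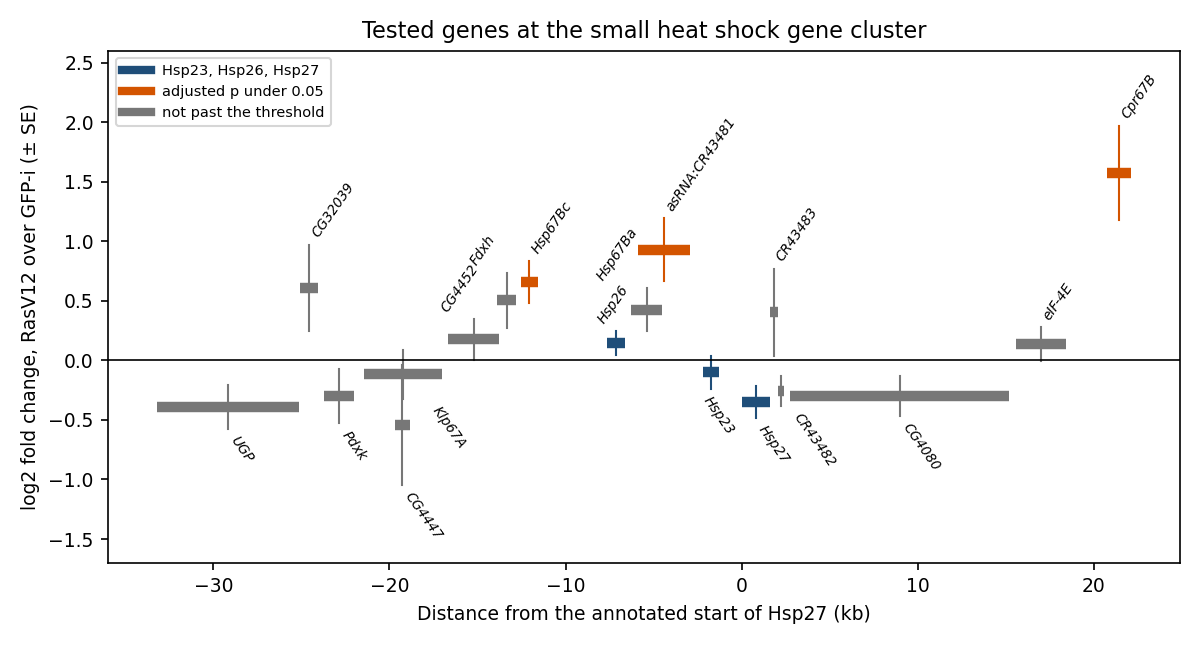
The log2 fold change of RasV12 over GFP-i for the 18 tested genes at the small heat shock cluster, against distance from the annotated start of Hsp27 in kb. Horizontal bars span each gene and vertical lines are ± SE. Hsp26 and Hsp27 lie on opposite sides of 0, and the genes past the threshold are Hsp67Bc, asRNA:CR43481 and Cpr67B.

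Markers of the disc and of other cell types differed between the groups. Of 7 wing disc genes 3 fell, 1 rose and 3 did not pass. The wing pouch gene nub had a mean of 12.6 CPM in the RasV12 libraries and 151 CPM in the controls (log2 fold change -3.58), vg fell by 1.45 and hth by 0.78 on the log2 scale, and the cadherin gene shg rose by 0.66. The dorsal selector gene ap was at 207 to 308 CPM over the 6 libraries (-0.20), and sd and tsh stood at 0.04 and -0.21. Summed disc markers were 2262 to 2777 CPM in RasV12 and 3447 to 3864 CPM in GFP-i.

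Of 5 tracheal markers btl, serp and verm rose (1.19, 0.95 and 0.72 on the log2 scale). The other 2, trh (-0.58) and vvl (-0.46), did not pass but were lower in each RasV12 library than in any control. In the authors' deposited table both had an adjusted p under 0.05 (0.027 and 0.030). The tracheal sum was 596 to 678 CPM in RasV12 and 525 to 631 CPM in GFP-i. Of 7 muscle precursor markers Him fell from 12.5 to 1.15 CPM on average, zfh1 from 18.1 to 3.91 CPM and htl from 2.72 to 0.648 CPM. The marker twi did not pass (-1.21, edgeR adjusted p = 0.051) but was lower in each RasV12 library than in any control. In the authors' deposited table its adjusted p was 0.0076. Act57B (-1.27) and stumps (-0.37) were negative with overlap and did not pass. Mef2, at 39.3 CPM in GFP-i and 49.5 CPM in RasV12, makes up much of that list's sum of 60.8 to 76.8 CPM in RasV12 and 78.2 to 117.6 CPM in GFP-i. Its log2 fold change of 0.33 did not pass. Haemocyte markers summed to 10.5 to 14.1 CPM in RasV12 and 16.8 to 29.7 CPM in GFP-i, with vkg and Col4a1 lower among 4 tested, and He and eater at no more than 0.177 CPM. Of 5 neuron and glia markers brp fell (-0.91). The marker elav went the other way without passing (0.48, edgeR adjusted p = 0.061). It measured 39.1, 39.6 and 48.0 CPM in RasV12 and 27.9, 33.2 and 29.7 CPM in GFP-i, with no overlap. The markers nSyb, repo and Syt1 were negative (-0.67, -0.40 and -0.29) and did not pass. The sum of this list was 69.4 to 85.7 CPM in RasV12 and 69.4 to 102 CPM in GFP-i. Fat body markers summed to at most 2.18 CPM, with 1 of 5 tested and not called. The part of these cells in the heat shock values was not tested. In bulk samples fewer cells of a type and less RNA per cell cannot be told apart.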

How the data were processed

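RNA of 6 libraries, 3 RasV12 and 3 GFP-i, was sequenced from transcript 3' ends with single reads of 100 nucleotides, according to the labels' protocols. The authors deposited 1 table, and its raw counts per gene are whole numbers that are not normalized. The submitters' processing notes name Trimmomatic 0.33, STAR 2.3.0e, bedtools 2.17, DESeq2 and build dm6. No source used here states the counter, whether it used strand, or which gene annotation it read. Per the file headers, the deposited baseMean is a signal (mean of normalized counts), the log2 fold changes come shrunken and unshrunken, the test statistic is a score, and p-values and adjusted p-values are the authors'; an other column marks the authors' calls.

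The test was edgeR 4.0.16 in R 4.3.3 on the deposited counts (TMM scaling, filterByExpr, robust quasi-likelihood F test, two-sided, Benjamini-Hochberg adjustment over 9134 genes, threshold 0.05). Standard errors and 95% intervals were derived from the F statistic. The code was tested on simulated data. Alternatives were other scalings, DESeq2 1.42.0, limma-voom (limma 3.58.1), other filters, removal of rows for ribosomal and mitochondrial RNA, a replicate block, and dropping each library in turn.

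All measured heat shock genes are named. From each chaperone list the text names the 2 genes with the lowest p, the best gene of the opposite direction if both directions passed, and every gene of lists of up to 6. It also names every gene at the cluster, genes that overlap a heat shock gene, and the 3 genes most like Hsp23, Hsp26 and Hsp27. Trap1, Xbp1 and Csp are named for their range over the RasV12 libraries. Genes and lists were chosen with earlier results of these data known. Gene names came from the table or, where it gave none or an older or joint one, from the supplied symbol table. Of 14018 gene identifiers shared with Ensembl release 115, 98.5% had identical coordinates. Promoter letters were not examined, since no sequences were used here.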

Additional observations from a re-analysis of the deposited data

How the results depend on the processing

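Called genes numbered 1355 in all (836 higher, 519 lower). Leaving out 1 library gave 741 to 1521 called, 437 to 943 higher and 297 to 578 lower, and scaling by library size only gave 911 lower. For the 9 heat shock genes the count was 0 in each direction. It became 1 higher with a filter of 10 CPM in 3 libraries (Hsf), 1 lower with scaling by library size only (Hsp27), and 0 to 1 higher and 0 to 1 lower when a library was left out. For the other chaperone genes 6 rose and 1 fell. Scaling by library size only gave 5 lower, and leaving out 1 library 1 to 7 higher and 0 to 5 lower. Of the cluster's neighbours 3 rose, against 1 with scaling by library size only, 1 with the 10 CPM filter and 0 to 2 when a library was left out. The causes were not tested, except that the filters and the left-out libraries change which genes or samples enter the fit. Same-numbered libraries correlated at -0.05, -0.43 and -0.14 in their deviations from the group means. These values were not set against differently numbered libraries, so they do not settle whether the numbers pair the samples. With a replicate block 701 genes were called, 480 higher and 221 lower, with 0 heat shock genes, 1 other chaperone gene higher and 0 lower, and 0 neighbours higher. The planned reading of promoter letters was not run. With 3 libraries per group the 95% intervals of the 9 heat shock genes reach from -0.75 to 0.73 on the log2 scale, and smaller changes may go uncalled.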

Other observations

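The genes whose library profile was most like the mean of Hsp23, Hsp26 and Hsp27 were CG11526, the sodium pump gene Atpalpha and l(3)psg2. Their centred log2 levels over the 6 libraries differed from that mean by a root mean square of 0.03, 0.05 and 0.05. They were picked from all tested genes outside the lists, and their own log2 fold changes were -0.11, -0.15 and -0.02. The mean joins Hsp26 (log2 fold change 0.15) with Hsp27 (-0.35), so opposite differences partly cancel in it. A gene close to the mean need not follow either of them.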
